A study of Homo sapiens with 5 samples.

Results

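The occupancy of MYC in parental Mia PaCa-2 cells was compared with its occupancy in a derived line that carries an inducible hairpin but had not been induced. Mia PaCa-2 is an established human pancreatic cancer cell line, and the derived line holds a doxycycline-inducible (teton) short hairpin RNA against MED30 (shMED30), a subunit of the Mediator complex. The parental cells were grown under normal culture, and the hairpin line received no doxycycline, so neither group was treated with the inducer, and hairpin activity without it was not measured here. Each group holds 1 chromatin immunoprecipitation sequencing (ChIP-seq) library, with chromatin fixed in formaldehyde alone. Members were the peaks of the 2 deposited lists with a q of 0.05 or less (a −log10 q of at least 1.301) on chromosomes 1 to 22 and X, outside stretches of over 2 Mb without an annotated gene, called chromosome arms below. This left 10440 of 14331 parental peaks and 2499 of 7158 peaks of the uninduced line. The gene-free stretches took 3387 parental and 4331 uninduced peaks, and sequences outside those chromosomes took 504 and 235. The q limit removed a further 93 uninduced peaks and no parental peak. At that limit the weakest uninduced peak kept had a −log10 q of 1.31 and the strongest left out had 1.27. The series holds 3 more libraries, MED17 and MED30 in parental cells and MYC in the hairpin line after 3 days of doxycycline, which served here as further readouts at the same sites. With 1 library per group no test across libraries could be made. Intervals below are exact (Clopper-Pearson) 95% intervals that cover counting error only and treat peaks or genes as independent.

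MYC is a transcription factor of the basic helix-loop-helix leucine zipper family that binds DNA as a heterodimer with MAX. Its preferred site is the E-box CACGTG, and it is found near the start sites of many active genes. Genes for ribosomes, translation, nucleotide synthesis and metabolism are among its best known targets. In pancreatic cancer cells MYC is a driver of growth.

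The lists differed strongly in depth. The lowest local background recovered from the peak values was 2.56 fragments in the parental library and 0.310 in the uninduced one, a ratio of 8.27. The median peak summit held 22 fragments in the parental list and 8 in the uninduced list, and the lowest held 10 and 4. The labels name a choice of library kits without saying which library was made with which. Line, depth and library preparation cannot be told apart in this comparison, and whether the hairpin line is a single clone is not given in the sources used here.

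Promoter windows from RefSeq (GRCh38.p14), running from 250 bases before a listed start to 50 after it, show what the summits fell on. All are written 5′ to 3′ on the gene's strand with CACGTG in capitals. Positions count from 1 at the 5′ end, and the start site is base 251. The first 4 are the windows with both summits inside them among the strongest shared promoter sites. In the window of AIMP2 (chr7:6009315-6009614, plus strand), a scaffold protein of the aminoacyl-tRNA synthetase complex, CACGTG begins at base 176, and the parental summit fell on base 164 and the uninduced one on base 185. In the window of WDR43 (chr2:28894417-28894716, plus strand), a ribosome biogenesis factor, CACGTG begins at base 254 and the summits fell on bases 266 and 252. The window of ANGPTL6 (chr19:10106141-10106440, minus strand), whose peak also lies at the ribosome biogenesis gene PPAN, holds no CACGTG, and its summits fell on bases 67 and 43. The window of CCDC47 (chr17:63773548-63773847, minus strand), an endoplasmic reticulum protein gene beside DDX42, holds none either, with summits on bases 4 and 16.
AIMP2: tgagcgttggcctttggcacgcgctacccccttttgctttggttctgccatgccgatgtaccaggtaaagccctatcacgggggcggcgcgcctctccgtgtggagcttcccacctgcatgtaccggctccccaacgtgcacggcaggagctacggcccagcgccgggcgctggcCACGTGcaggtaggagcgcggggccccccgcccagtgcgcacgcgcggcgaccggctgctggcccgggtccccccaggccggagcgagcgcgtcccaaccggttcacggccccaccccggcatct
WDR43: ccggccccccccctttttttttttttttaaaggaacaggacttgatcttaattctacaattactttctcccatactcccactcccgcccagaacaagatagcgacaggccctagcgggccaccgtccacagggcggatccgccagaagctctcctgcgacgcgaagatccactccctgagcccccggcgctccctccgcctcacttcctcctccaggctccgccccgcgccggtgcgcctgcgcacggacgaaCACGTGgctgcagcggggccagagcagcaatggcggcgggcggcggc
ANGPTL6: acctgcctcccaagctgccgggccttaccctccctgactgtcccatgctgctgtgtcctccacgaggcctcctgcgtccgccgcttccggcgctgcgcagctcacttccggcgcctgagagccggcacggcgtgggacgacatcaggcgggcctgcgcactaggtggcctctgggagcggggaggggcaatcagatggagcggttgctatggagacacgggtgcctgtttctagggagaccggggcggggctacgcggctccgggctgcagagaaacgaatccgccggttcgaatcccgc
CCDC47: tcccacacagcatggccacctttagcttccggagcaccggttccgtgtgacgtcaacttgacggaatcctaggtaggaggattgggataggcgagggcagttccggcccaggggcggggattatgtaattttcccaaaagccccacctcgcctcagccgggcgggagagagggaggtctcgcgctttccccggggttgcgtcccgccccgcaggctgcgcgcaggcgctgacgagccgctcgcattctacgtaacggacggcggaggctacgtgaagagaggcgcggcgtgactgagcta

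The next windows are at strong promoter peaks called in 1 list only. MLLT1 (chr19:6279926-6280225, minus strand), a subunit of elongation complexes, and QTRT1 (chr19:10701189-10701488, plus strand), a tRNA-modifying enzyme, had parental peaks alone. The MLLT1 window has CACGTG at base 4, where the parental summit fell as well. QTRT1 has 2, at bases 206 and 252, with the summit on base 276. PEX10 (chr1:2413778-2414077, minus strand), a peroxisome biogenesis factor, had an uninduced peak alone, with CACGTG at base 11 and the summit on base 83. LOC124901648 (chr7:63761116-63761415, plus strand), whose sequence is not printed, also had an uninduced peak alone. Its window holds no CACGTG, and the summit fell on base 39.
MLLT1: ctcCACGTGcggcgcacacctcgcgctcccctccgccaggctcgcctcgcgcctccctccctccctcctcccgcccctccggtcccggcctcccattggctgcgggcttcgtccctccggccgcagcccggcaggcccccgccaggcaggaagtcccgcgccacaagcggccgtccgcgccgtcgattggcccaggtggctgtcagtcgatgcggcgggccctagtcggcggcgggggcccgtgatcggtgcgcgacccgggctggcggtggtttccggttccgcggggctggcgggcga
QTRT1: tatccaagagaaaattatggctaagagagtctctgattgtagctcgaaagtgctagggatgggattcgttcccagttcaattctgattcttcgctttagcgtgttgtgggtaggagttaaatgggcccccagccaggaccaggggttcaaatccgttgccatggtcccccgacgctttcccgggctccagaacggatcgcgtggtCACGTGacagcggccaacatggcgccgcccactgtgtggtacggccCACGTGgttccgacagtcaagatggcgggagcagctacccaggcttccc
PEX10: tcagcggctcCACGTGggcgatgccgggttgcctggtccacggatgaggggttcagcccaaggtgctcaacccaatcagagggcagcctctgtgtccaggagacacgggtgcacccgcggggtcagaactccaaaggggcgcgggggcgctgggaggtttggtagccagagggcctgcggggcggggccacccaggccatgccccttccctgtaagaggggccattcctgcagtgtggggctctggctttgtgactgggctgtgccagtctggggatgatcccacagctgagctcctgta

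On chromosome arms, most peaks of the shallow list touched a peak of the deep one. Of the 2499 uninduced peaks, 1907 overlapped a parental peak by at least 1 bp (76.3%, 74.6 to 78.0%). In the other direction, 1903 of 10440 parental peaks (18.2%, 17.5 to 19.0%) had an uninduced peak. Among uninduced peaks within 1 kb of a listed start of a protein-coding gene, called promoter peaks here, 1226 of 1304 (94.0%, 92.6 to 95.2%) had a parental peak. Elsewhere on chromosome arms the count was 681 of 1195 (57.0%, 54.1 to 59.8%). Promoters of genes without a listed start fall in the second class. The share of uninduced peaks with a parental one depended on the definition: it was 53.0% with summits required to lie within 100 bp, 49.2% with gene-free stretches kept and 27.3% with an overlap of 50% of both peaks.

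The parental peaks that reappeared were the strong ones. Fold enrichment is the authors' value for the fragment pileup at the summit over the local background. It was taken to hold a constant added to both terms, as set out with the processing. Fold was used to rank peaks within a list. In the weakest of 10 equal bins by parental fold (median 3.12), 3.83% (2.75 to 5.18%) of 1044 peaks had an uninduced peak. In the ninth bin (median 6.36) 37.9% (35.0 to 41.0%) did, and in the strongest (median 8.20) 71.4% (68.5 to 74.1%). Promoter peaks and other peaks of the strongest bin were found at similar shares, 71.4% (68.0 to 74.7%) of 721 and 71.2% (65.9 to 76.1%) of 323. Of the 100 parental peaks with the highest fold, 95 had an uninduced peak.

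In the uninduced list, location separated the weak peaks. Of its 51 promoter peaks in the weakest bin, 41 (80.4%, 66.9 to 90.2%) had a parental peak, against 44 of 199 other peaks in that bin (22.1%, 16.5 to 28.5%). In the strongest bin all 156 promoter peaks and 91 of 93 others (97.8%, 92.4 to 99.7%) had one. All of the 100 strongest uninduced peaks overlapped a parental peak.

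**Figure D1:**
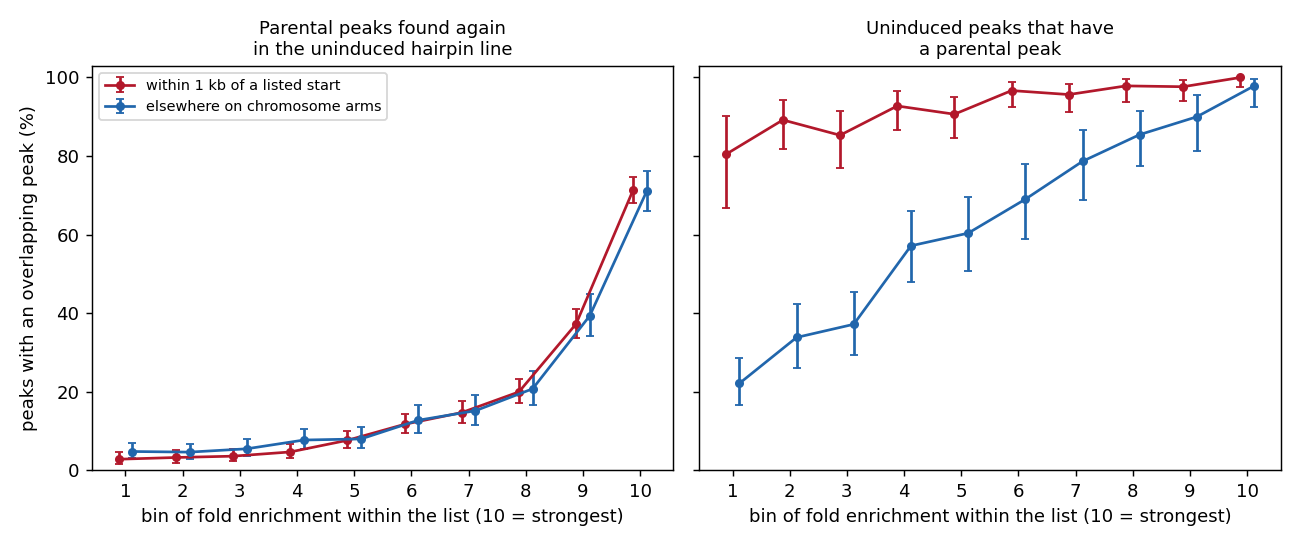
Share of peaks with an overlapping peak in the other list, in 10 equal bins of fold enrichment within the list (left, parental peaks; right, uninduced peaks), for peaks within 1 kb of a listed start and elsewhere; bars are exact 95% counting intervals. The left curves lie together and rise from under 5% to over 71%, while on the right the promoter curve starts at 80.4% and the other at 22.1%.

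The order of the shared sites was partly kept. Pairing each peak with its nearest partner gave 1881 shared sites, 1222 at promoters and 659 elsewhere. Across these sites Spearman's rho of fold between the lists was 0.55, the same at promoters (0.55) and elsewhere (0.55). It was 0.66 for the summit pileup, 0.73 for the local background and 0.46 for pileup over local background without the added constant. For fold it was 0.56 at the 685 sites also in the doxycycline list and 0.40 at the 1196 others. Of the 188 sites in the top 10% by fold of either list, 91 (48.4%) were in the top 10% of both, while 51 (27.1%) were in the bottom 10% of both. Sites that moved from one extreme to the other were few: 2 were in the uninduced top 10% and parental bottom 10%, and 1 the reverse. These correlations describe 2 libraries across sites, which are not independent replicates.

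At shared sites the median summit pileup was 39 fragments in the parental library and 9 in the uninduced one, a median ratio of 4.19 (5th to 95th percentile 2.15 to 7.80). The ratio of the lowest backgrounds was 8.27. Pileup over local background, without the constant that fold holds, was higher in the uninduced library at 1838 of 1881 sites (97.7%), with medians of 14.0 and 7.49. The median fold at the same sites was 6.07 in the uninduced list and 6.41 in the parental list. Which library had the higher median thus depended on the constant. Sites enter this set only if the shallow library called them. Uninduced peaks were narrower, with a median width of 300 bp against 764 bp, and 1477 (78.5%) lay wholly inside the parental peak.

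**Figure D2:**
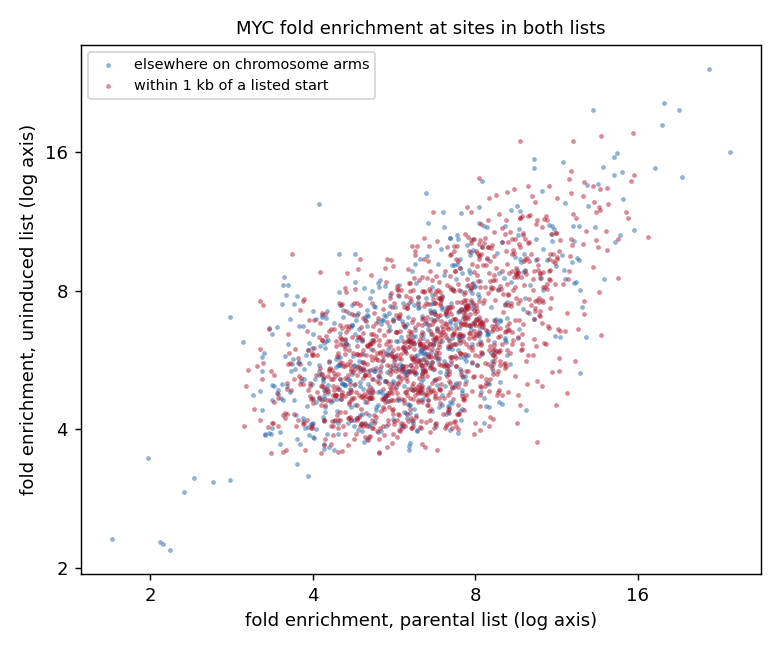
Fold enrichment of the 1881 shared sites in the parental list (horizontal) and the uninduced list (vertical), both on log axes, 1 point per site, coloured by place. Points rise together with a wide spread, and the highest in both lists lie away from listed starts and near chromosome ends.

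Summits in the 2 lines fell close together. The median distance between paired summits was 54 bp (quartiles 23 and 125 bp). It was 50 bp or less at 909 sites (48.3%), 100 bp or less at 1324 (70.4%) and over 500 bp at 58 (3.08%). Distances were shorter where the uninduced summit was better covered: the median was 30 bp at the 336 sites with 15 or more fragments and 100 bp at the 366 sites with 6 or fewer. Promoter sites had a median of 50.5 bp and other sites 58 bp. The width of the parental peak made little difference, with medians of 52 bp for peaks up to 500 bp wide and 50 bp for those over 1000 bp.

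**Figure D3:**
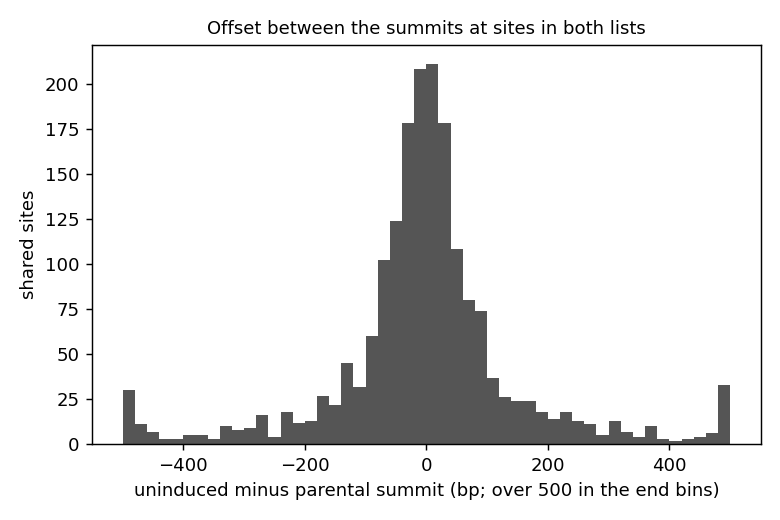
Signed offset of the uninduced summit from the parental summit at the 1881 shared sites, in 20 bp bins, with offsets past 500 bp gathered in the end bins. The offsets centre on 0, and 70.4% lie within 100 bp.

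E-boxes were frequent where both summits fell in the same promoter window. The motif CACGTG, which reads the same on both strands, occurs in 1831 of 22012 distinct windows of 300 bases (8.32%). It was present in 195 of 432 windows that held a summit of both lists (45.1%, 40.4 to 50%), and in 409 of 2801 with a parental summit alone (14.6%, 13.3 to 16%). Windows with an uninduced summit alone held it in 48 of 149 cases (32.2%, 24.8 to 40.4%). A summit alone in a window does not mean a site of 1 list, since the other summit can lie just outside. The windows with both summits were also the stronger ones. Among windows in the top 20% by parental fold, the shares were 147 of 272 (54.0%, 47.9 to 60.1%) with both summits and 108 of 375 (28.8%, 24.3 to 33.7%) with the parental summit alone. The variant CACGCG, or CGCGTG on the other strand, showed a smaller contrast, with 38.4% of windows with both summits, 29.9% with the parental summit alone and 14.2% of all windows. In the top 20% its share was 38.6% (32.8 to 44.7%) with both summits and 44.3% (39.2 to 49.5%) with the parental summit alone. These intervals overlap. Windows of neighbouring genes can overlap and share sequence.

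Both libraries placed their summits near the E-box. In the 164 windows with both summits and a single CACGTG, the median distance from its centre was 20 bp for the parental summit and 28 bp for the uninduced one. The parental summit lay within 50 bp in 120 windows (73.2%) and the uninduced one in 124 (75.6%). The parental summit was the nearer one in 87 windows, the uninduced one was in 75, and 2 were equal.

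At the level of genes, the shallow list was almost a subset of the deep one. Of 15812 protein-coding genes with a listed start, 6680 (42.2%) had a parental promoter peak and 1456 (9.21%) an uninduced one. Both were present at 1394 genes, which is 20.9% of the parental genes (19.9 to 21.9%) and 95.7% (94.6 to 96.7%) of the uninduced ones. These 1394 genes rest on 1220 distinct uninduced peaks, since neighbouring genes can share a peak, and 340 of them did. Their median parental fold was 6.60, against 4.41 for genes with a parental peak alone. Summits lay at a median of 182 bp from the start in the parental list and 197 bp in the uninduced list. In the top 20% of parental genes by fold, 799 of 1336 (59.8%) had an uninduced peak. Genes are counted by the 1 kb window, which can split an overlapping pair of peaks. Among the 5286 genes with a parental promoter peak alone, that peak overlapped an uninduced peak beyond the window at 17. Of the 62 with an uninduced promoter peak alone, 2 had such an overlap, and at 22 of the 1394 with both no parental promoter peak overlapped an uninduced one.

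Of 14 known MYC targets with a listed start, all had a parental promoter peak and 12 an uninduced one. Over all genes with a listed start, 42.2% had a parental promoter peak, and 20.9% of those had an uninduced one. The 12 were all in the top 20% of parental genes by fold, where 59.8% of all genes were found again. The targets not found were outside that top 20%. Folds of the 2 lists are on different depths, so ranks are given among the 1881 shared sites, with 1 the highest fold in that list. NCL, encoding nucleolin, had a parental fold of 10.2 (rank 176) and an uninduced fold of 12.8 (rank 42). NPM1, encoding nucleophosmin, had 11.3 (rank 95) and 9.48 (rank 196). ODC1, ornithine decarboxylase of the polyamine pathway, had 9.81 (rank 203) and 10.7 (rank 102), with summits 7 bp after and 31 bp before the start. These 3 genes ranked within the first 203 in both lists.

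LDHA, lactate dehydrogenase A, ranked 542 in the parental list (fold 7.73) and 55 in the uninduced one (12.1). MTHFD2, a mitochondrial folate enzyme, ranked 383 (8.47) and 43 (12.7). CAD, which starts pyrimidine synthesis, ranked 473 (8.04) and 168 (9.76). The order was the other way for CCT2, a chaperonin subunit, which ranked 263 (9.29) and 1005 (5.87). HSPD1, a mitochondrial chaperone, ranked 926 (6.46) and 1521 (4.75). With 1 library per line, none of these differences in rank could be tested. NME1, TFRC, PPAT and NOP56 had both peaks as well. CDK4, a cell cycle kinase (parental fold 5.81, percentile 79.2), and EIF4E, the cap-binding protein (5.55, percentile 75.8), had no uninduced promoter peak, and CCND2 has no listed start.

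Ribosome biogenesis, translation factor and cytosolic ribosomal protein genes had the highest shares found again. Median parental fold was highest for the cytosolic ribosomal protein and ribosome biogenesis lists. The aminoacyl-tRNA synthetase and mitochondrial ribosomal protein lists, given below, had lower shares. Of 68 ribosome biogenesis genes with a listed start, all had a parental promoter peak and 41 (60.3%, 47.7 to 72.0%) an uninduced one. The median parental fold of the 68 was 7.30, against 4.67 over all genes with a parental peak. The strongest in both were PES1, a large subunit assembly factor (parental 14.0, uninduced 9.77), PPAN (13.6 and 13.3), WDR43 (13.2 and 13.5) and URB1 (12.7 and 13.8). Not found again were NOP14 (9.87), NOC4L (7.75) and FTSJ3 (7.49), among others. Cytosolic ribosomal protein genes had a parental peak at 62 of 63 and an uninduced peak at 36 (58.1%, 44.8 to 70.5%), with a median parental fold of 7.83. RPSA (15.5 and 13.8), RPS23 (11.9 and 13.9) and RPS19 (11.5 and 10.3) were high in both lists, while RPL24 had 12.2 in the parental list (rank 63 of the shared sites) and 5.63 in the uninduced one (rank 1108). RPL4 (9.96), RPL37A (9.58) and RPS7 (9.48) were called in parental cells alone. Within the top 20% of parental fold, where 59.8% of all genes were found again, the counts were 36 of 49 for ribosome biogenesis (73.5%), 35 of 51 for ribosomal proteins (68.6%) and 14 of 17 for translation factors (82.4%). These shares were below those of the nucleotide, chaperone and glycolysis lists given below, which hold 13, 14 and 6 such genes. No counting interval was computed for these list shares, and their distance from 59.8% was not tested.

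Translation factors had 37 of 38 genes with a parental peak and 22 (59.5%, 42.1 to 75.2%) with both, at a median parental fold of 6.03. They were led by the elongation factor EEF1B2 (12 and 13), EIF5A (11.3 and 10.6), EIF3B (11 and 9.37) and EIF4G1 (10.3 and 8.84). The peak of EEF1B2 is also that of NDUFS1, a respiratory complex I gene on the other side of it. EIF6 (7.02) and EIF3K (6.76) had a parental peak alone. EIF2B5 (8.66) had no uninduced peak within 1 kb of its start, but its parental peak was a shared site with an uninduced fold of 8.66 and summits 36 bp apart. Of 31 aminoacyl-tRNA synthetase genes with a parental peak, 10 (32.3%, 16.7 to 51.4%) had both, with AIMP2 (13.7 and 17.3), EARS2 (9.16 and 6.70), WARS2 (9.04 and 5.55) and IARS1 (8.97 and 8.83) the strongest. TARS1 (8.01), the threonyl-tRNA synthetase, was the strongest of those called in parental cells alone.

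Nucleotide synthesis genes were found again at 14 of 29 (48.3%, 29.4 to 67.5%), and in the top 20% of parental fold at 12 of 13. NME2 (14.1 and 13.3), NME1 (12.3 and 11.5) and ATIC, a purine synthesis enzyme (10.7 and 8.77), were high in both lists. MTHFD1L, a mitochondrial folate enzyme, had a parental fold of 13.7 and an uninduced fold of 6.41, ranks 30 and 798 of the shared sites. HPRT1, the purine salvage enzyme, had the strongest parental peak of the list without an uninduced one (11.3, percentile 99.0). Glycolysis and pentose phosphate genes had both peaks at 7 of 20 (35.0%, 15.4 to 59.2%), which included all 6 in the top 20%. HK2, a hexokinase, had 10.5 and 7.09, and SLC2A1, a glucose transporter, 8.11 and 8.39. RPIA of the pentose phosphate branch had 7.70 and 4.76, and PGLS (6.06), ALDOA (5.98) and GPI (5.64) had a parental peak alone.

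Genes for protein folding, splicing and nuclear transport lay between the ribosome biogenesis, translation factor and cytosolic ribosomal protein lists and the average gene. Chaperones had both peaks at 17 of 37 (45.9%, 29.5 to 63.1%), among them HSP90AB1 (11.3 and 9.38), CCT5 (9.67 and 11.5) and PPIA (9.14 and 8.27). In the top 20% of parental fold, 13 of 14 did. Splicing factors had 18 of 45 (40%, 25.7 to 55.7%), led by SRSF6 (13.2 and 12.5), HNRNPK (11.2 and 9.17) and PCBP1 (11 and 13.4). SRSF7 had 9.60 (rank 228) and 4.76 (rank 1519), and SNRPE (9.12) had a parental peak alone. HNRNPU had no uninduced peak within 1 kb of its start, but its parental peak (8.53) was a shared site with an uninduced fold of 9.26 and summits 42 bp apart. Nuclear transport genes had 15 of 41 (36.6%, 22.1 to 53.1%), with the GTPase RAN at 8.35 and 10.4 and its activator RANGAP1 at 8.84 and 4.87. RANBP2, a nuclear pore protein, had a parental peak of 9.71 with no uninduced one, and IPO8, an importin, an uninduced peak of 4.69 (percentile 28.1) with no parental one.

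Mitochondrial and proteasome genes were found again about as often as any gene. Mitochondrial ribosomal protein genes had both peaks at 12 of 57 (21.1%, 11.4 to 33.9%), including MRPL3 (14.0 and 10.7), and MRPL43 (10.3) had a parental peak alone. Oxidative phosphorylation genes had 7 of 43 (16.3%, 6.81 to 30.7%), including NDUFA11 (8.81 and 5.34) and COX5A (6.31 and 6.06). CYCS, encoding cytochrome c, had a parental peak alone (8.95). The proteasome list had 7 of 29 (24.1%, 10.3 to 43.5%), with the activator subunit PSME3 (13.6 and 12.1) the strongest. The median parental folds of the 3 lists were 4.90, 4.51 and 4.44, close to the 4.67 of all genes.

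RNA polymerase III genes had both peaks at 7 of 18 (38.9%, 17.3 to 64.3%), with GTF3C6 (10.8 and 6.12), GTF3A (9.0 and 7.87) and SSB (8.34 and 8.16), and POLR3E (9.62) in parental cells alone. RNA polymerase II and elongation genes had 6 of 24 (25%, 9.77 to 46.7%), including RTF1 (7.50 and 6.17) and the kinase gene CDK13 (6.78 and 5.15). Among Mediator genes 12 had a parental peak and MED20 alone had both (9.80 and 10.6). In the MYC network 6 of 16 had both (37.5%, 15.2 to 64.6%): the MAX partners MXD1 (10.5 and 8.71) and MXD3 (10.0 and 10.1) were high in both lists. MAX itself (7.81, percentile 93.7) and MGA (6.26) had a parental peak alone. MNT had no uninduced peak within 1 kb of its start, but its parental promoter peak was a shared site (4.59 and 5.18, summits 47 bp apart).

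For the remaining lists the share over all genes, 20.9%, lay within the counting interval. The same held above for the aminoacyl-tRNA synthetase, glycolysis, mitochondrial, proteasome, RNA polymerase II and III, Mediator and MYC network lists. Cell cycle genes had both peaks at 4 of 32 (12.5%, 3.51 to 29.0%): MCM7 (13.2 and 9.01), POLD2 (10.7 and 7.56), CCND3 (6.08 and 4.23) and PCNA (4.95 and 4.08). PLK1, a mitotic kinase, had an uninduced promoter peak (5.87, percentile 56.3) and no parental one. Lysosome and autophagy genes had 2 of 23 (8.70%, 1.07 to 28.0%), LAMP1 and SQSTM1. Cholesterol and fatty acid genes had 6 of 18 (33.3%, 13.3 to 59.0%), with ACLY (5.59, rank 1236, and 7.91, rank 396) and DHCR7 (5.46, rank 1277, and 8.33, rank 318) among them. LSS of the same pathway had a parental peak alone (10.8). Stress response genes had 5 of 14 (35.7%, 12.8 to 64.9%), including the transcription factors ATF5 (7.10 and 9.95) and ATF4 (6.78 and 7.98) and the kinase gene EIF2AK2 (6.42 and 7.94).

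Genes that MYC is known to repress had 10 of 16 with a parental peak (62.5%, against 42.2% of all genes) and GADD45B alone with both (4.15 and 4.96). That 1 of 10 has an interval of 0.253 to 44.5%, which holds the 20.9% of all genes. KLF4 (6.71) and TXNIP (6.39) had a parental peak only. Mesenchymal genes had 4 of 13 with a parental peak, CALD1 the strongest (5.24), and none with both. Of 19 pancreatic epithelial and acinar genes, MUC1 alone had a parental promoter peak (6.10) and none an uninduced one within 1 kb. The MUC1 peak, shared with the neighbouring THBS3 start, was a site of both lists (THBS3 6.10 and 5.70, summits 51 bp apart). The lists differ in parental fold, and none was tested against the others.

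**Figure D4:**
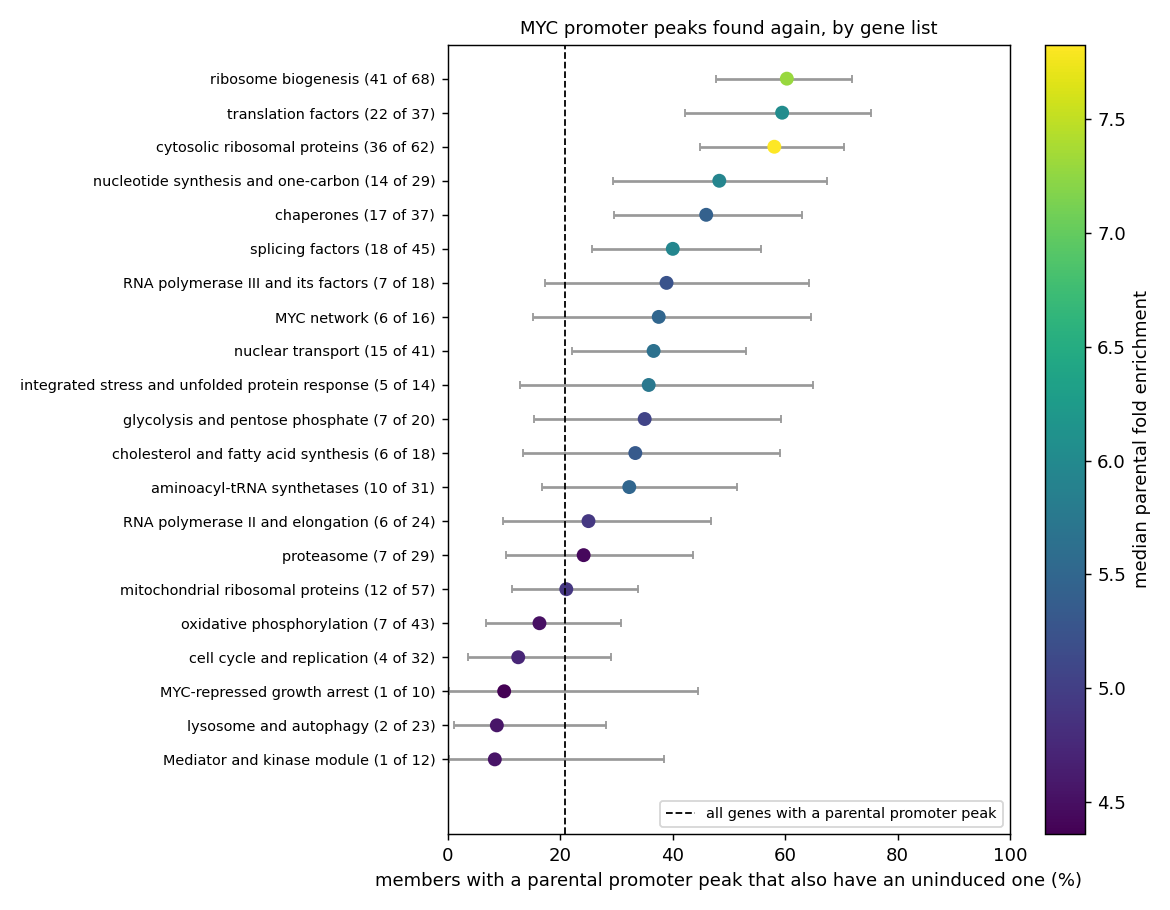
For each gene list with at least 10 parental promoter genes, the share of those genes that also had an uninduced promoter peak, with exact 95% counting intervals, coloured by the list's median parental fold; the dashed line is the share over all genes (20.9%). Ribosome biogenesis (60.3%), translation factors (59.5%) and ribosomal proteins (58.1%) stand highest and Mediator genes (8.33%, 1 of 12) lowest. The Mediator interval, 0.211 to 38.5%, holds the share over all genes.

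The strongest promoter site in both lists, by mean rank, lay between MGME1 and SNX5 on chromosome 20 (parental peak 17968267 to 17969098, uninduced 17968444 to 17968840). MGME1 encodes a mitochondrial nuclease and SNX5 a sorting nexin. The folds there were 15.7 and 17.5 (summit pileups 179 and 45), and the summits lay 14 bp apart. GDI2, a regulator of RAB proteins, followed (15.7 and 14.2), then RPSA, AIMP2 with PMS2, NME2, PPAN with ANGPTL6, WDR43, CCDC47 with DDX42 (14.1 and 12.3), CCDC88C (12.1 and 16.9) and FPGS, a folate enzyme (15.2 and 11.8). All 10 also had a MYC peak with doxycycline and a MED17 peak, and all but CCDC88C a MED30 peak. Of all parental promoter peaks found again, 92.6% had a MED17 peak, 84.5% a MED30 peak and 36.7% a doxycycline peak. In the strongest bin of uninduced promoter peaks the doxycycline share was 76.9%. Their summits lay 12 to 38 bp apart.

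The strongest shared sites away from promoters had still higher folds. The first lay 40188 bp from FOXK1 (chromosome 7, 4641617 to 4642501 in the parental list), with folds of 21.6 and 24.2, pileups of 324 and 92, and summits 16 bp apart. The next 4 had PARD6G (17.9 and 20.4), IL9R (19.1 and 19.6), RABL2B (23.6 and 16) and ANHX (17.8 and 18.3) as their nearest genes, 15555 to 29271 bp away. All 5 were in the doxycycline list too, and all but the PARD6G site had peaks of both Mediator subunits. Of all parental non-promoter peaks found again, 71.8% had a MED17 peak, 69.0% a MED30 peak and 40.2% a doxycycline peak. In the strongest bin of uninduced non-promoter peaks the doxycycline share was 80.6%.

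Sites called in parental cells only numbered 8537, of which 5086 were at promoters. Their median fold was 4.21, against 6.38 for the parental peaks found again, and their median pileup 20 against 39. The strongest promoter site was at BANF1 and EIF1AD (chromosome 11, 66002125 to 66002921; fold 13.3, percentile 99.6), a chromatin-binding factor gene and its neighbour. HPRT1 (11.3), MLLT1 (11.2), QTRT1 (11), LSS (10.8), TRMT61A (10.5), MRPL43 (10.3), IREB2, FAM156A and CD63 followed. The strongest elsewhere, 816839 bp from KCNJ18 on chromosome 17 (22521351 to 22521568), had a fold of 20.5, and another lay inside VEGFA (10.8), the angiogenic growth factor gene.

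Some of the strongest parental sites missing from the uninduced list were present in the other library of the same line. Over all parental peaks, 1067 (10.2%) overlapped a doxycycline peak. In the strongest bin of parental peaks, 82 of the 299 without an uninduced peak (27.4%, 22.4 to 32.9%) had a doxycycline peak, against 438 of 745 (58.8%, 55.2 to 62.4%) with one. HPRT1 (doxycycline fold 5.95), MLLT1 (5.90), RPL37A (4.13) and SNRPE (7.89) were such sites, and so was the VEGFA site (6.74). With either list of the hairpin line counted, 98 of the 100 strongest parental peaks and 448 of the strongest 500 (89.6%) were found, where the uninduced list alone gave 95 and 413. At the level of genes, 248 of 5286 with a parental peak and no uninduced one (4.69%) had a doxycycline promoter peak, among them RPL37A, and 513 of the 1394 with both (36.8%) did.

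Sites called in the uninduced line only numbered 592. Of these 78 (13.2%, 10.6 to 16.2%) were at promoters, against 64.3% of uninduced peaks with a parental partner. Their median fold was 4.48 and their median pileup 6, against 6.05 and 9. The deposited parental list goes no lower than a −log10 q of 1.30, so weaker parental peaks could not be sought. A parental summit lay within 1000 bp of 39 of the 592 sites (6.59%). The strongest at promoters were at NBEAL2 (chromosome 3, 46979932 to 46980162; fold 7.93, percentile 83.8), PEX10 (7.88), XPO6, a nuclear exporter (7.65), SLC18B1 (7.59), NINJ2 (6.95), NME4 (6.79), JADE1, PITPNM2, a group of genes named LOC124901648, LOC124901651 and LOC124901652, and SSR3. None reached the strongest 10% of its list. Away from promoters the strongest lay inside MYT1L (chromosome 2, 2034912 to 2036180; 9.50, percentile 92.3), 625032 bp from FOXD4L6 (8.94), inside LOC124904607 (8.91), 28984 bp from CCDC200 (8.48) and inside MCF2L (8.47).

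These sites differed from shared ones in their other readouts. A MED17 peak of parental cells was present at 55 (9.29%, 7.08 to 11.9%) and a MED30 peak at 42 (7.09%, 5.16 to 9.47%), where 80.2% and 75% of uninduced peaks with a parental partner had one. The chromatin of the Mediator libraries was fixed differently, with disuccinimidyl glutarate before formaldehyde. At promoters the MED17 share was 36 of 78 (46.2%, 34.8 to 57.8%), against 86.9% of uninduced promoter peaks with a parental partner. Elsewhere it was 19 of 514 (3.70%, 2.24 to 5.71%), against 68.3%. Within 5 Mb of a chromosome end, taken as the first base or the end of the last annotated gene, lay 169 of the 592 (28.5%, 24.9 to 32.4%), against 18.2% (16.5 to 20.0%) of uninduced peaks with a partner. Those near an end were wider than 1000 bp in 22 cases (13.0%, 8.34 to 19.0%) and those elsewhere in 20 of 423 (4.73%, 2.91 to 7.21%).

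A small set was seen in both libraries of the hairpin line and not in parental cells. Over all uninduced peaks 29.5% overlapped a doxycycline peak. Of the 592 uninduced-only sites 45 did (7.60%, 5.60 to 10.0%), against 692 of 1907 with a parental partner (36.3%, 34.1 to 38.5%). At promoters 2 of 78 did, XPO6 (7.65 without and 6.70 with doxycycline) and the LOC124901648 group (6.54 and 5.26). The strongest was inside MCF2L, with folds of 8.47 and 5.01. The XPO6 peak lay 956 bp from the nearest parental summit. A separate promoter site nearest to XPO6 was shared by the parental and uninduced lists (6.75 and 6.35, summits 159 bp apart).

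**Figure D5:**
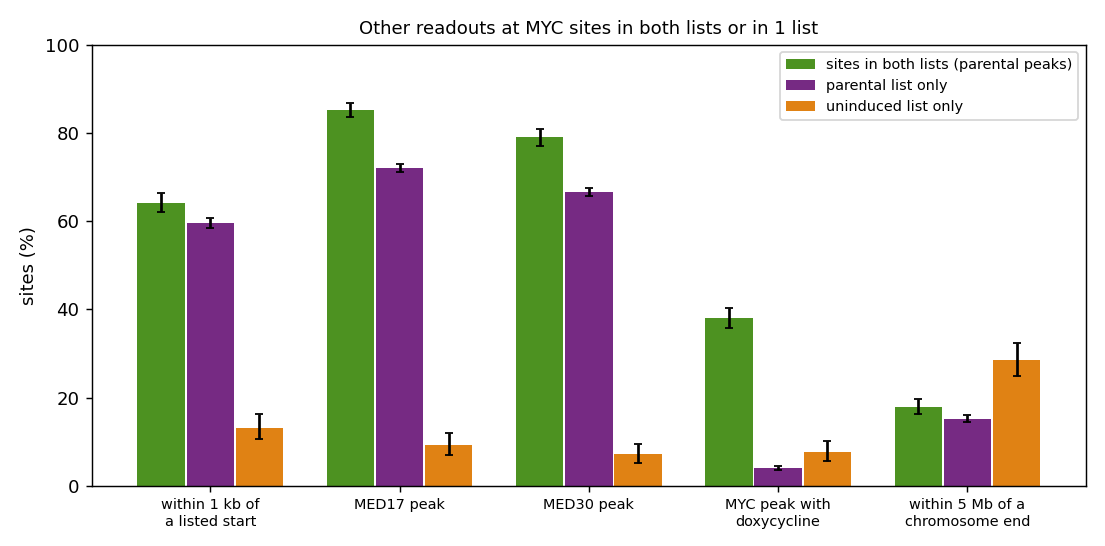
Share of MYC sites within 1 kb of a listed start, with a MED17, MED30 or doxycycline MYC peak, and within 5 Mb of a chromosome end, for 1903 parental peaks found again, 8537 parental-only peaks and 592 uninduced-only peaks; bars are exact 95% counting intervals. Uninduced-only sites are lowest for the promoter, MED17 and MED30 shares and highest for chromosome ends.

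Mediator peaks marked the parental sites that were found again somewhat more often. Of parental peaks with a MED17 peak 20.9% (20.0 to 21.8%) had an uninduced peak, and of those without 10.6% (9.42 to 11.8%). For MED30 the shares were 20.9% (20.0 to 21.9%) and 12.3% (11.2 to 13.5%). Within the strongest bin of parental peaks the contrast was within the counting intervals, with 713 of 995 found (71.7%, 68.7 to 74.4%) at sites with a peak of either subunit and 32 of 49 (65.3%, 50.4 to 78.3%) at sites with none. In all 3 MYC lists together, 723 parental peaks (6.93%) were found.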

How the data were processed

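MYC ChIP-seq peaks of 2 libraries were compared, with 3 further libraries as readouts at the same sites. Each deposited file is a narrowPeak list of 1 library. Per the submitters' processing notes, the tools were MACS2, Bowtie2, Trim Galore and deepTools and the build hg38. Neither tool versions nor an input control were given in the sources used here. The authors deposited fold enrichment as a ratio, significance as −log10 p and −log10 q, a score of about 10 times −log10 q, and the summit offset. No deposited value was rescaled.

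Summit pileup and background were recovered from fold and p, taking fold as (pileup + 1)/(background + 1) and p as a Poisson tail. Both were matched within 0.002 for 99.9% or more of peaks. The RefSeq table (GRCh38.p14) gave 27 gene-free stretches, and the promoter table gave 22132 starts for 15812 of 19974 protein-coding genes. Scripts (Python 3.11.15, scipy 1.17.1) were tested on simulated data.

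Members and the 23 gene lists were chosen with earlier results of these data known. Genes named are 15 known targets, up to 4 members of a list in both and 3 in parental cells only by parental fold (fewer where space allowed), members in the uninduced list only, genes at the 10 strongest promoter sites of each class and the nearest gene of the 5 strongest others. Sites of 1 list shared with doxycycline were named after their values were seen.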

Additional observations from a re-analysis of the deposited data

Results flagged for a closer look

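Peaks in gene-free stretches were left out of the comparison. There, 1327 of 4075 uninduced peaks (32.6%, exact 95% interval 31.1 to 34.0%) overlapped one of 3387 parental peaks, a signal in peaks that no comparison above uses.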

How the results depend on the processing

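No paired analysis was possible because each group holds 1 library, and leaving out a replicate was not possible either. The uninduced list holds no peak under 4 fragments, and weaker sites were not detectable at its depth. The share of uninduced peaks with a parental peak was 81.4% at a q of 0.01 or less, 49.2% with gene-free stretches kept, 53.0% for summits within 100 bp, 27.3% for an overlap of 50% of both peaks, and 50.6% with the parental list reduced to its strongest peaks, as many as the uninduced list holds. The share of parental peaks with an uninduced peak was 23.9% with gene-free stretches kept, 12.7% for summits within 100 bp, 6.52% for an overlap of 50% and 49.7% with the reduced parental list. The share of parental promoter genes found was 19.8% at the stricter q and 50% with the reduced list. Spearman's rho was 0.61 for an overlap of 50%, 0.51 with the reduced list and 0.58 when ranked by −log10 q. The median summit distance was 33 bp for summits within 100 bp and 43 bp with the reduced list. Uninduced-only sites numbered 3340 with gene-free stretches kept, 1175 for summits within 100 bp, 1818 for an overlap of 50% and 1235 with the reduced list, which left 1256 parental-only sites. Other alternatives, among them every deposited peak and stretches over 1 Mb, moved these values by less than their counting interval or by at most 1.5 times. Of 184 counts of list members with both peaks under 8 alternatives, 175 stayed within 1.5 times. In an alternative chosen after seeing the data, a parental promoter peak that overlaps an uninduced peak counted as found wherever that peak lay, and the share of genes was 21.1%.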
